A study of Mus musculus with 32 samples.

Results

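The transcripts followed here are those of Mos and 9 other genes that hold an oocyte in meiotic arrest, release it from arrest or tie its chromosomes together: Wee2, Gpr3, Cdc25a, Cdc25b, Cdc25c, Rec8, Sycp3, Smc1b and Stag3. They were chosen by gene symbol. All 10 were found among the 24013 genes of the stage table and among the 22536 genes of each of the 2 knockdown tables. The measurements were made by RNA sequencing of mouse oocytes, embryos and embryonic stem cells. Levels are given as FPKM, fragments per kilobase of transcript scaled to the number mapped in the library, a unit that is per length, so that genes can be set side by side.

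The series held 32 samples in 12 groups. In the first knockdown, 4 libraries came from 8-cell embryos injected with siRNA against Nr5a2, which encodes an orphan nuclear receptor, and 4 from control 8-cell embryos. In the second, 4 libraries came from blastocysts injected with siRNA against Gata4, which encodes a GATA transcription factor of the primitive endoderm, and 3 from control blastocysts. After injection the embryos grew in CZB medium that contained glutamine, and the labels give no further treatment for the control groups. The stage series held MII oocytes (2 samples, from superovulated C57BL/6N females, taken 20 h after hCG), zygotes (2 samples), embryos at the early 2-cell, 2-cell, 4-cell and 8-cell stages (2 samples each), inner cell mass or ICM (3 samples, isolated by immunosurgery, which kills the outer cells of the blastocyst) and mESC (2 samples, the R1 line, grown with LIF and serum). All embryos, injected ones included, came from superovulated C57BL/6N females mated to DBA/2N males. The labels name neither the number of embryos in a library nor whether libraries came from separate collections, so p-values measure only the spread between libraries.

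A mammalian oocyte stops its meiosis at 2 points. In the ovary it waits in prophase, where the receptor GPR3 keeps cyclic AMP high and the kinase WEE2 (also called WEE1B) holds CDK1 inactive by phosphorylating it. CDC25 phosphatases remove that phosphate and so start maturation. After ovulation the egg waits at metaphase of meiosis II, where the kinase MOS activates the MAP kinase cascade and thereby protects the inhibitor EMI2 (the product of Fbxo43) of the anaphase-promoting complex. Cohesion between sister chromatids during this long wait depends on meiotic cohesin, in which REC8, SMC1B and STAG3 stand in for the mitotic subunits RAD21, SMC1A and STAG1 or STAG2. SYCP3 builds the axis of meiotic chromosomes and is removed from them before the oocyte reaches metaphase. In mouse embryonic stem cells many germ cell genes of this kind are held silent by a Polycomb complex that contains E2F6, MGA and MAX.

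By the GENCODE M21 annotation Mos (ENSMUSG00000078365.5) is a gene of 1 exon on chromosome 4 that encodes 342 residues, and Gpr3 lies on the same chromosome. Wee2 lies on chromosome 6, Cdc25a on chromosome 9 and Cdc25b on chromosome 2. Rec8 lies on chromosome 14, Sycp3 on chromosome 10, Smc1b on chromosome 15 and Stag3 on chromosome 5. No member had another transcript with at least 95% identity over at least 50% of its coding sequence. Of the 1139 bases of the longest coding Sycp3 transcript, 535 overlap exons of Chpt1 on the other strand. The labels state no strand for the counting, so reads from the overlap cannot be told apart, and Chpt1 values are given beside those of Sycp3.

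The sequences before the start of transcription are shown for the 4 cohesin and axis genes, whose levels differ widely although they serve in the same structure, and for Wee2, the member with the highest level in eggs. They are the 250 bases before the annotated start in RefSeq, build GRCm38.p6, written 5′ to 3′ on the strand of the gene. Capitals mark the letters TCCCGC or GCGGGA (the core to which E2F factors bind, on either strand) and CACGTG (the E-box bound by MGA with MAX).
Rec8, chr14:55617916-55618165, plus strand: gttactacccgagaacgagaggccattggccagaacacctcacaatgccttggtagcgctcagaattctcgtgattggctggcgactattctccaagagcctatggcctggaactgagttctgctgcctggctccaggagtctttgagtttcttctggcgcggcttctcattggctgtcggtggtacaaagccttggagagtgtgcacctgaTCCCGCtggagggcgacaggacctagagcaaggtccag
Sycp3, chr10:88459337-88459586, plus strand: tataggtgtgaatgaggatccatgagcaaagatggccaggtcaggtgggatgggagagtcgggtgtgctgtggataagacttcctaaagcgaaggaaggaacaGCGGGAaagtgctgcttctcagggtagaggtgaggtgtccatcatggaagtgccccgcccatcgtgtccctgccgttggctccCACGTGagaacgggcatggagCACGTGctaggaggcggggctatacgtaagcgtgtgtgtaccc
Smc1b, chr15:85131958-85132207, minus strand: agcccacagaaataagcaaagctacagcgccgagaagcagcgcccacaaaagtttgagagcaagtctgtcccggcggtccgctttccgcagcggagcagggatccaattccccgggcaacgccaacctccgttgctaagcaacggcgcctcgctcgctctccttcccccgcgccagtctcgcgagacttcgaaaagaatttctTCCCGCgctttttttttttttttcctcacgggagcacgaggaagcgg
Stag3, chr5:138280259-138280508, plus strand: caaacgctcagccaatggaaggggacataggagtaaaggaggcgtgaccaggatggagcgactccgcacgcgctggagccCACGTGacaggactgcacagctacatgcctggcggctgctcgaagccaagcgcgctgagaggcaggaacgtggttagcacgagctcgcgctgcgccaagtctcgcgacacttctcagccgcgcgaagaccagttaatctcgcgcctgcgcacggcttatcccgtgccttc
Wee2, chr6:40442613-40442862, plus strand: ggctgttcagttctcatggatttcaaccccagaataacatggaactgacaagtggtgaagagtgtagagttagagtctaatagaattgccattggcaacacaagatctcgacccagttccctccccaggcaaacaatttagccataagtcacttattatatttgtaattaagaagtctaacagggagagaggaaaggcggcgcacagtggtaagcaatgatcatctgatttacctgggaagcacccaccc
Of the 10 members 8 had an entry in the promoter table, with windows of 300 bases that run 50 bases past the start. TCCCGC on either strand occurred in 6 of those 8 windows (Gpr3, Cdc25b, Rec8, Sycp3, Smc1b and Stag3) and in 20.0% of all 32851 windows. CACGTG occurred in 2 of the 8 (Sycp3 and Stag3) and in 7.15% of all windows. AAGGTCA, the core bound by NR5A receptors, and AGATAA, bound by GATA factors, were found on neither strand of any of the 8 windows, against 4.72% and 11.2% of all windows. CCAAT on either strand was found in all 8 windows and in 37.4% of all windows. The Wee2 window held 5 CpG dinucleotides at 46% GC, against medians of 7 and 52.7% over all windows, and the Stag3 window held 30 CpG dinucleotides. The windows of Gpr3, Smc1b, Cdc25b, Cdc25a, Rec8 and Sycp3 held 38, 29, 20, 18, 18 and 15. All member windows but that of Wee2 were thus above the median. The shares of letters were not compared with windows of like CpG content. A match is a description of the letters in these windows.

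The stage table holds 1 value per stage, so differences between stages have no replicate check and no test. A gene is called past the fold here when 2 stages differ by at least 1 on the log2(FPKM + 1) scale and the higher stage reaches 5 FPKM. The shares of all genes printed beside such calls include genes below 5 FPKM at both stages, which cannot be called. They are thus lower than the shares among genes that can be called. In these bulk samples, fewer cells of a type and less RNA per cell cannot be told apart. The protocol primes on poly(A) tails, so a change in tail length and a change in the amount of a transcript cannot be told apart either. Between 8388 and 9580 genes reached 1 FPKM per stage, and the depth of the libraries is unknown. Eggs carried all 8 oocyte markers at 5 FPKM or more, and of 10 cumulus and granulosa cell markers only Cyp19a1, at 24.7 FPKM, reached 1 FPKM, with Has2 at 0.0154 FPKM and Ptx3 listed at 0. The ICM had all 8 pluripotency markers at 5 FPKM or more, and also all 8 trophectoderm markers at 1 FPKM or more, with Krt8 at 62.7 and Krt18 at 86.1 FPKM against 1.33 and 9.89 FPKM at the 8-cell stage. Cdx2, the defining trophectoderm factor, was at 1.61 FPKM in the ICM. The part of such cells in the ICM values was not tested.

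**Figure D1:**
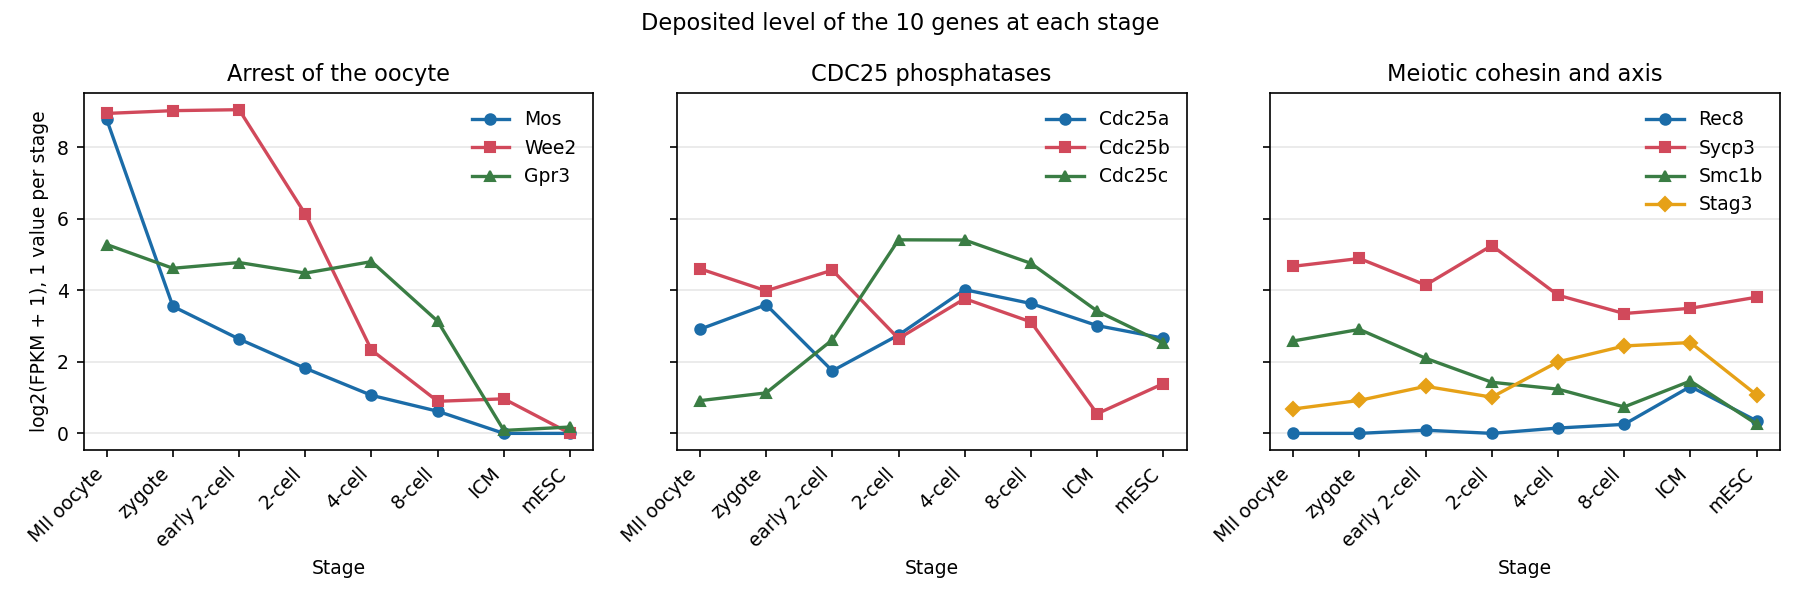
Level of the 10 genes on the log2(FPKM + 1) scale (vertical axis) at 8 stages from MII oocyte to mESC (horizontal axis), with 1 deposited value per stage and no error. Mos drops after the egg, Wee2 after the early 2-cell stage and Gpr3 after the 4-cell stage, while Cdc25c is highest in 2-cell and 4-cell embryos and Rec8 stays below 2 FPKM throughout.

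The measured levels of the arrest transcripts fell in sequence. Mos was first past the fold below the stage before it in zygotes, Wee2 in 2-cell embryos and Gpr3 in 8-cell embryos. Mos stood at 436 FPKM in MII oocytes, above 99.4% of all genes. It stood at 10.7 FPKM in zygotes, 5.21 in early 2-cell, 2.53 in 2-cell, 1.09 in 4-cell and 0.535 in 8-cell embryos, and was listed at 0 in the ICM and in mESC. The step to the zygote was a 40.7-fold lower level, or -5.22 on the log2(FPKM + 1) scale. Mos was the only member past the fold at that step, where 5.64% of all genes were lower and 3.27% higher.

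Wee2, which opposes CDK1 and is also needed for the egg to leave metaphase at fertilisation, did not share that early drop. It stood at 490 FPKM in MII oocytes, 517 in zygotes and 527 in early 2-cell embryos, and was the highest member at each of these stages. It stood at 68.8 FPKM in 2-cell, 4.02 in 4-cell and 0.861 in 8-cell embryos, at 0.952 FPKM in the ICM and was listed at 0 in mESC. Its level was thus 7.65-fold lower at the 2-cell than at the early 2-cell stage, and a further 17.1-fold lower at the 4-cell stage. In MII oocytes Wee2 and Mos together made up most of the 1024 FPKM summed over the 10 members. That sum was 614 FPKM in zygotes, 185 in 2-cell and 68.6 in 8-cell embryos, 36.6 in the ICM and 26.4 in mESC. The total over all genes differed between stages as well. It was 495643 FPKM in MII oocytes, 315146 in zygotes and 234738 in 2-cell embryos. In 8-cell embryos it was 335642 FPKM, in the ICM 360432 FPKM and in mESC 341732 FPKM.

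Gpr3, the receptor of the prophase arrest, kept its measured level longest among the arrest genes. It stood at 37.8 FPKM in MII oocytes, 23.5 in zygotes, 26.3 in early 2-cell, 21.3 in 2-cell and 26.8 in 4-cell embryos. It stood at 7.77 FPKM in 8-cell embryos, 0.0588 in the ICM and 0.131 in mESC. Gpr3 was the only member past the fold between the 4-cell and the 8-cell stage, with -1.67 on the log2(FPKM + 1) scale, where 2.43% of all genes were lower and 1.72% higher. Both knockdown tables held the same order in their controls: Gpr3 ranged between 2.48 and 8.14 FPKM in 8-cell control embryos and between 0 and 0.0709 FPKM in control blastocysts. Cd164l2, which has a transcript that overlaps an exon of Gpr3 on the other strand, stood at 433 FPKM in MII oocytes, 5.60 at the 8-cell stage and 3.79 in the ICM. The longest coding Gpr3 transcript shares 0 bases with it.

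Which of the 3 CDC25 transcripts was highest differed between stages in the stage table. Cdc25b, the isoform that mouse oocytes need to resume meiosis, was the highest of them in eggs, zygotes and early 2-cell embryos, Cdc25c from the 2-cell stage to the ICM, and Cdc25a in mESC. Cdc25b stood at 23.2 FPKM in MII oocytes, 14.8 in zygotes, 22.6 in early 2-cell, 5.27 in 2-cell, 12.6 in 4-cell and 7.66 in 8-cell embryos, 0.462 in the ICM and 1.62 in mESC. Cdc25c, which acts on CDK1 in mitotic cells and is not required for mouse meiosis, stood at 0.885 FPKM in MII oocytes, 1.19 in zygotes, 5.12 in early 2-cell, 41.4 in 2-cell, 41.3 in 4-cell and 25.9 in 8-cell embryos. It stood at 9.70 FPKM in the ICM and 4.75 in mESC. The injected 8-cell controls did not keep the 8-cell order, with means of 15.7 FPKM for Cdc25b and 11.7 FPKM for Cdc25c. Cdc25c was above Cdc25b in controls 1 and 2 and below it in controls 3 and 4. Cdc25a, which acts at the entry into DNA synthesis as well as at mitosis, moved within a narrower range, from 2.36 FPKM in early 2-cell embryos to 15.2 FPKM in 4-cell embryos.

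At the early 2-cell stage Cdc25c was past the fold above the zygote (1.48 on the log2(FPKM + 1) scale) and Cdc25a below it (-1.85), where 1.31% of all genes were higher and 2.1% lower. The step from the early 2-cell to the 2-cell stage, around the major activation of the mouse embryonic genome, put 5 members past the fold, more than any other step between neighbouring stages. Cdc25c (2.79), Sycp3 (1.10) and Cdc25a (1.001) were higher, where 10.5% of all genes were higher, and Wee2 (-2.92) and Cdc25b (-1.91) were lower, where 10.4% were lower. Cdc25a lay at the threshold. Among the 7252 genes at 5 FPKM or more in the higher of these stages, 2519 were higher and 2489 lower. Most genes that could be called were thus past the fold at this step. At the 4-cell stage Cdc25a (1.27) and Cdc25b (1.12) were past the fold above the 2-cell stage and Wee2 (-3.80) and Sycp3 (-1.39) below it, where 6.58% of all genes were higher and 4.73% lower. The ICM had 3 members past the fold below the 8-cell stage, Gpr3 (-3.05), Cdc25b (-2.57) and Cdc25c (-1.33), and none above it, where 6.03% of all genes were lower and 7.65% higher. Between mESC and the ICM no member was past the fold, where 3.02% of all genes were higher and 10.5% lower. From MII oocytes to 8-cell embryos Cdc25c was higher and Mos, Wee2, Gpr3, Cdc25b and Sycp3 were lower, where 12.5% of all genes were higher and 14.2% lower.

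The cohesin and axis genes did not act as a block. Sycp3 was listed at 9.19 FPKM or more at every stage, and Smc1b at a few FPKM in eggs and zygotes. Stag3 was highest in 8-cell embryos and ICM, and Rec8 was near 0. Rec8, the subunit that separase cuts to part the chromosomes, was listed at 0 in MII oocytes, zygotes and 2-cell embryos, at 0.0638 FPKM in early 2-cell, 0.109 in 4-cell and 0.191 in 8-cell embryos, at 1.48 FPKM in the ICM and at 0.275 FPKM in mESC. The ICM was thus the stage of its highest value, yet below 5 FPKM. Sycp3 stood at 24.4 FPKM in MII oocytes, 28.6 in zygotes, 16.7 in early 2-cell, 37.0 in 2-cell, 13.5 in 4-cell and 9.19 in 8-cell embryos, 10.3 in the ICM and 12.97 in mESC. Its overlapping neighbour Chpt1, an enzyme of phosphatidylcholine synthesis, stood at 0.260 FPKM in MII oocytes, 0.580 in zygotes and 0.342 in early 2-cell embryos. The Sycp3 level of these stages thus stood without a Chpt1 level of like size. Chpt1 stood at 5.81 FPKM in 2-cell, 11.1 in 4-cell and 17.2 in 8-cell embryos, 6.36 in the ICM and 1.78 in mESC. It was thus above Sycp3 at the 8-cell stage, where reads from the overlap cannot be told apart.

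Smc1b, the meiotic partner of SMC3 in the cohesin ring, stood at 4.99 FPKM in MII oocytes, 6.49 in zygotes, 3.28 in early 2-cell, 1.69 in 2-cell, 1.35 in 4-cell and 0.670 in 8-cell embryos, 1.76 in the ICM and 0.199 in mESC. Stag3 stood at 0.603 FPKM in MII oocytes, 0.895 in zygotes, 1.49 in early 2-cell, 1.02 in 2-cell and 2.997 in 4-cell embryos. It stood at 4.43 FPKM in 8-cell embryos, 4.81 in the ICM and 1.11 in mESC. Embryos at the 8-cell stage thus had a higher Stag3 and a lower Smc1b level than eggs. From MII oocytes to zygotes and from the ICM to mESC the 2 genes moved the same way. Of these 3 subunits only Smc1b reached 5 FPKM at any stage, in the zygote, so the steps of Rec8 and Stag3 could not be past the fold under that minimum.

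Set beside their counterparts in mitotic cells, the meiotic forms differed from each other. Wee2 was 257-fold above Wee1 in MII oocytes (490 against 1.91 FPKM) and 18.7-fold above it in 2-cell embryos. In 4-cell embryos the order was turned, with Wee2 at 4.02 and Wee1 at 7.51 FPKM. The transcripts of REC8 and RAD21 showed no such turn of order. Rec8 was listed at 0 in MII oocytes against 15.4 FPKM for Rad21, and Rad21 was at 76.3 FPKM in 2-cell embryos. Transcript levels do not show which of the 2 proteins the cohesin of these cells held. Smc1b was 4.25-fold below Smc1a in MII oocytes, 2.11-fold below it in zygotes and 29.2-fold below it in 8-cell embryos. Stag3 was 9.79-fold below Stag1 in MII oocytes, above it in 4-cell embryos (2.997 against 2.01 FPKM) and in 8-cell embryos (4.43 against 3.22 FPKM), and below it again in the ICM (4.81 against 10.3 FPKM). Stag2 was at 67.0 FPKM in 8-cell embryos, so Stag3 was 15.1-fold below it there. The injected 8-cell embryos had the reverse order of Stag3 and Stag1. Their means were 2.38 against 3.62 FPKM in the controls and 2.35 against 3.21 FPKM in the Nr5a2 knockdown.

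**Figure D2:**
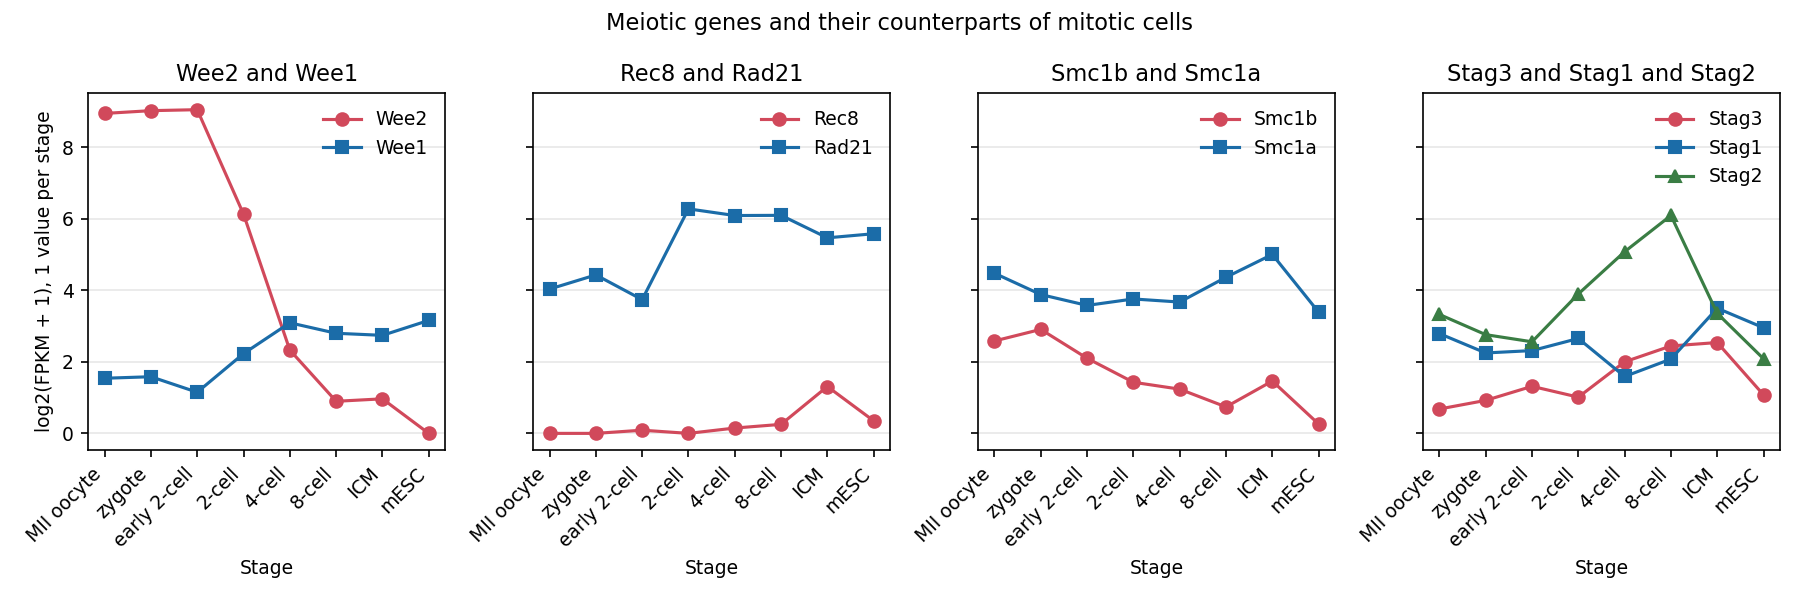
Levels on the log2(FPKM + 1) scale (vertical axis) at 8 stages (horizontal axis) for Wee2 with Wee1, Rec8 with Rad21, Smc1b with Smc1a, and Stag3 with Stag1 and Stag2, each point being 1 deposited value. The lines of Wee2 and Wee1 cross between the 2-cell and 4-cell stage, and those of Rec8 and Smc1b stay below their counterparts at every stage.

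The other genes of these pathways were read from 4 lists. Of 13 genes of the MAP kinase and metaphase arrest arm, 11 reached 1 FPKM in MII oocytes. The highest were Map2k1, the kinase directly under MOS, at 316 FPKM, Cdc20, the activator of the anaphase-promoting complex, at 205 FPKM, Camk2g, the calcium-dependent kinase that ends the arrest at fertilisation, at 199 FPKM, and Fbxo43 at 105 FPKM. At the zygote stage, where Mos was 40.7-fold lower, Map2k1 stood at 203, Cdc20 at 101, Camk2g at 73.5 and Fbxo43 at 73.8 FPKM, and 3 genes of this list were past the fold below the egg and 1 above it, where 5.64% of all genes were lower and 3.27% higher. Fbxo43 stood at 62.2 FPKM in early 2-cell and 6.74 FPKM in 2-cell embryos.

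Of 18 genes of the prophase arrest and CDK1 switch, 15 reached 1 FPKM in MII oocytes, led by Ccnb1 at 385, Chek1 at 360, Ccnb2 at 169 and Plk1 at 140 FPKM. Ccnb1 and Ccnb2 encode the cyclins that activate CDK1, Chek1 a kinase that inhibits CDC25 proteins, and Plk1 a kinase that activates them. At the 2-cell stage 8 of the 18 were past the fold below the early 2-cell stage and 2 above it, where 10.4% of all genes were lower and 10.5% higher. Among the 7252 genes at 5 FPKM or more in the higher stage, 2489 were lower and 2519 higher. Ccnb1 stood at 689 FPKM in early 2-cell and 329 FPKM in 2-cell embryos, and Chek1 at 179 and 29.4 FPKM at these stages.

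All 17 genes of mitotic cohesin and shared cohesin factors reached 5 FPKM at some stage, and 16 reached 1 FPKM in MII oocytes. The highest there were Pttg1 (securin, the inhibitor of separase) at 2845 FPKM, Cdca5 (sororin) at 268 FPKM, Esco2, the acetyltransferase that establishes cohesion, at 193 FPKM, and Smc3 at 78.9 FPKM. At the 2-cell stage 6 of the 17 were past the fold above the early 2-cell stage, Rad21, Smc3 and Stag2 among them, and only Pttg1 below it, where 10.5% of all genes were higher and 10.4% lower. Among the 7252 genes at 5 FPKM or more in the higher stage, 2519 were higher and 2489 lower. Of 20 genes of the meiotic axis, synapsis and recombination, 18 were in the table and 9 reached 1 FPKM in MII oocytes. Syce2 stood at 177, Tex12 at 96.9, Msh4 at 32.8 and Sycp2 at 18.3 FPKM there. Syce2 and Tex12 encode parts of the central element of the synaptonemal complex, and Sycp2 a partner of SYCP3 in its axis. Sycp2 stood at 15.6 FPKM in zygotes, 6.66 in early 2-cell and 0.502 in 8-cell embryos. At the 8-cell stage Sycp3 was listed at 9.19 FPKM and its overlapping neighbour Chpt1 at 17.2 FPKM. Reads from the overlap of Sycp3 and Chpt1 cannot be told apart.

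Likeness of profile was measured as Pearson's r of log2(FPKM + 1) over the 8 stages, among 9573 genes that reached 5 FPKM in a stage. With 8 points that share libraries, and with 1 high stage in the case of Mos, r is a description. The genes most like Mos were 9330182L06Rik (r = 0.991), Prex1 (0.989) and Fbxo10 (0.987), of which the highest, Fbxo10, reached 10.1 FPKM in MII oocytes. The genes most like Wee2 were Bmp5 (0.999), Tcl1b2 (0.998) and Arhgap20os (0.998), and Tcl1b2 stood at 1414 FPKM in MII oocytes and 1218 FPKM in early 2-cell embryos. Gpr3 was most like Klf17 (0.987), Osbpl11 (0.983) and Nkiras1 (0.982). Cdc25c was most like Rbmx (0.994), Tmem129 (0.993) and Sqle (0.990), and Cdc25b most like Gm4961 (0.981), Nr1d1 (0.975) and Fbxo34 (0.970). Cdc25a had lower likeness, with Prpf3 (0.942), Pwp2 (0.904) and 2310057M21Rik (0.882). Sycp3 was most like Fnip1 (0.965), Gli3 (0.965) and Pkn2 (0.957), and Smc1b most like Psme3 (0.981), Mynn (0.980) and Uvssa (0.978). Members were left out of these rankings. Between members, r of Mos with Wee2 was 0.763.

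The first knockdown asked whether lowering Nr5a2 changes the transcripts of 8-cell embryos. The targeted gene stood at 3.76, 4.25, 6.72 and 6.60 FPKM in the 4 Nr5a2 knockdown libraries, against 23.6, 20.3, 13.1 and 25.2 FPKM in the 4 control libraries. The groups did not overlap, with a log2 fold change of -1.76 (SE 0.27, adjusted p = 0.0143 by limma with Benjamini-Hochberg adjustment), which had an adjusted p of 0.0611 without control 1 and of 0.0845 with no filter on low values. Of the 10 members 6 passed the filter of 1 FPKM in 4 libraries. By limma at an adjusted p of 0.05, 0 of these 6 were called, and 0 had an unadjusted p under 0.05, where 2.26% of all 8170 genes tested were called (1.57% or 128 genes higher, 0.698% or 57 genes lower) and 20.6% had an unadjusted p under 0.05. Under median scaling the split was 67 higher and 81 lower. No member had groups that did not overlap, as 11.8% of all genes tested did. The median log2 fold change was 0.12 over the 6 members and 0.12 over all genes tested, and of the 6 values 3 were positive and 3 negative.

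Cdc25b and Cdc25c had the largest values of the 6. Cdc25b stood at 1.29, 7.11, 8.67 and 13.3 FPKM in the Nr5a2 knockdown libraries, against 6.11, 11.1, 24.7 and 20.8 FPKM in the control libraries. Knockdown 1 held the lowest and controls 3 and 4 the highest values, with overlap between the groups. The log2 fold change of Cdc25b was -1.06 (SE 0.55, 95% interval -2.26 to 0.14, adjusted p = 0.298 by limma), and -0.51 without knockdown 1. Cdc25c stood at 19.2, 18.9, 16.0 and 10.9 FPKM in the Nr5a2 knockdown libraries, against 9.96, 14.8, 14.8 and 7.15 FPKM in the control libraries. In 3 of the 4 knockdown libraries it was above every control, and knockdown 4 lay among the controls. The log2 fold change of Cdc25c was 0.47 (SE 0.28, 95% interval -0.14 to 1.07, adjusted p = 0.361 by limma).

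**Figure D3:**
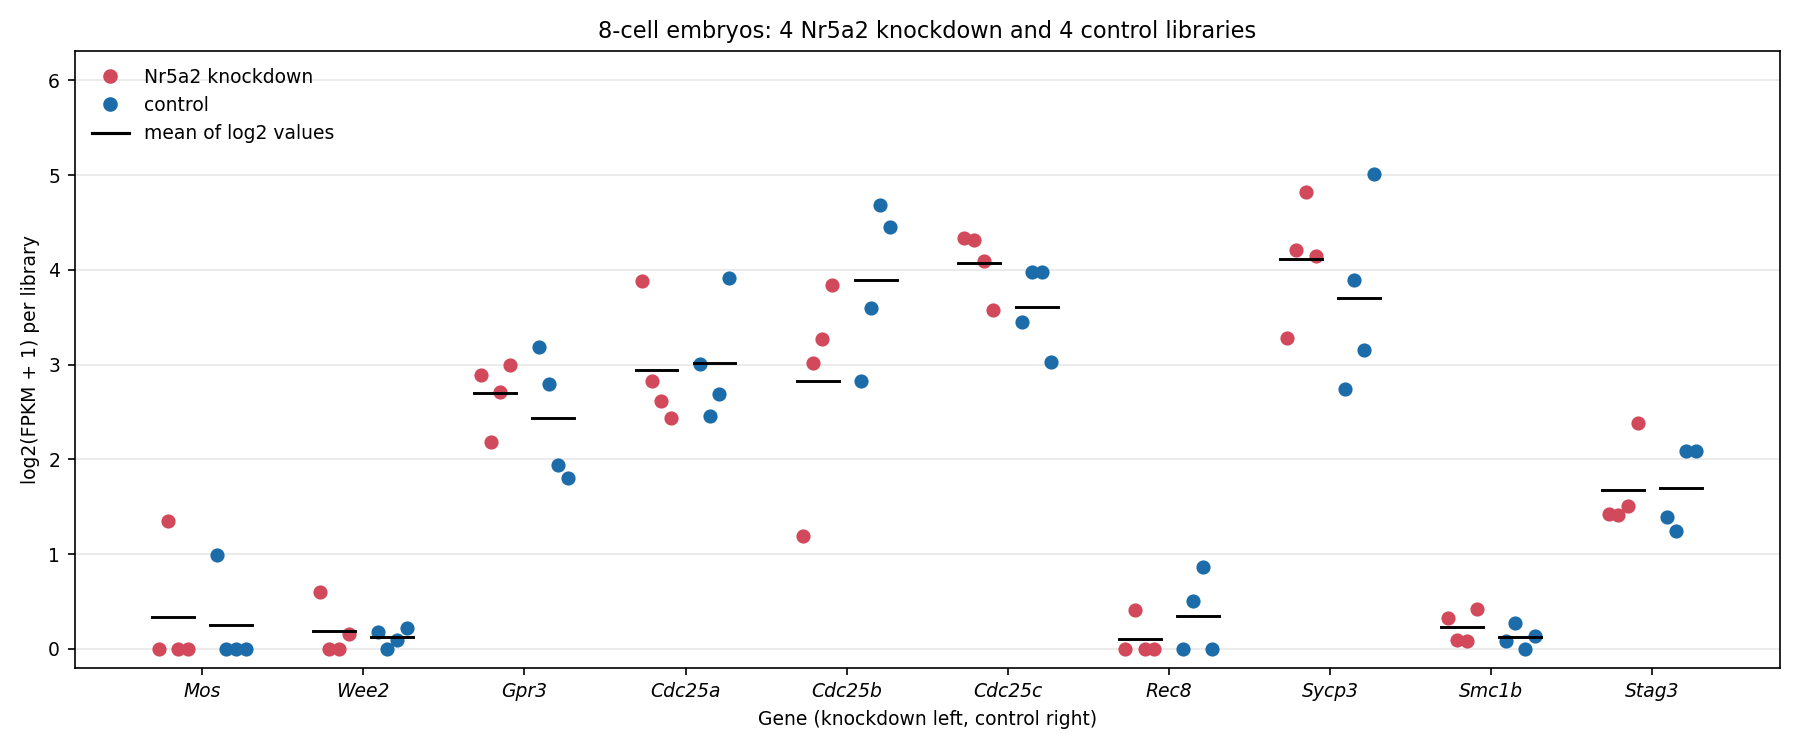
Level on the log2(FPKM + 1) scale (vertical axis) of the 10 genes (horizontal axis) in the 4 Nr5a2 knockdown libraries (red, left) and the 4 control libraries (blue, right) of 8-cell embryos, with 1 point per library and a bar at the mean of the log2 values. Points of both groups overlap for every gene, and the mean of Cdc25b is lower and that of Cdc25c higher in the knockdown.

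Sycp3 stood at 8.75, 17.5, 27.4 and 16.8 FPKM in the Nr5a2 knockdown libraries, against 5.67, 13.9, 7.92 and 31.2 FPKM in the control libraries. Control 4 held the highest value of all 8, and the groups overlapped (log2 fold change 0.42, SE 0.46, adjusted p = 0.637 by limma). Leaving out 1 library moved that fold change between 0.097, without control 1, and 0.85, without control 4. Chpt1 stood at 3.96 to 11.0 FPKM in the knockdown and at 2.57 to 5.81 FPKM in the control libraries. Gpr3 ranged between 3.54 and 7.004 FPKM in the Nr5a2 knockdown libraries, against 2.48 to 8.14 FPKM in the control libraries (log2 fold change 0.26, SE 0.34, adjusted p = 0.691 by limma). Cdc25a ranged between 4.42 and 13.7 FPKM in the knockdown and between 4.51 and 14.1 FPKM in the control libraries (log2 fold change -0.08, SE 0.38, adjusted p = 0.927 by limma). Stag3 ranged between 1.66 and 4.20 FPKM in the knockdown and between 1.37 and 3.26 FPKM in the control libraries (log2 fold change -0.02, SE 0.31, adjusted p = 0.976 by limma). The intervals of these values reach 1.43 for Sycp3 and 1.01 for Gpr3 on the log2(FPKM + 1) scale, so a change of that size is not excluded by 4 libraries a group.

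The other 4 members were below the filter. Mos was listed at 0 in 3 of 4 libraries of each group, with 1.55 FPKM in knockdown 2 and 0.985 FPKM in control 1. Wee2 reached at most 0.513 FPKM in the knockdown and 0.164 FPKM in the control libraries. Rec8 reached at most 0.330 FPKM in the knockdown and 0.825 FPKM in the control libraries, and Smc1b at most 0.334 FPKM in the knockdown and 0.206 FPKM in the control libraries. Exact two-sided permutation tests, whose smallest possible p with 4 against 4 libraries is 0.0286, gave unadjusted p = 1 for Mos, 0.886 for Wee2, 0.429 for Rec8 and 0.314 for Smc1b.

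Of the 4 pathway lists, 0 genes were called in this knockdown by limma among 8 tested of the MAP kinase arm, 14 of the CDK1 switch, 16 of mitotic cohesin and 8 of the meiotic axis list. Their median log2 fold changes were -0.03, 0.11, 0.13 and -0.09 in that order, against 0.12 over all genes tested. At an unadjusted p under 0.05 there were 2, 3, 3 and 0 genes in these lists, where 20.6% of all genes tested had such a p and 2.26% were called.

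The second knockdown asked the same of Gata4 in blastocysts, and here the libraries were of 2 kinds. The precursor of ribosomal RNA, Rn45s, was at 0 in Gata4 knockdown 1 and 2 and in control 2, and stood between 37959 and 44718 FPKM in knockdown 3 and 4 and in control 1 and 3. The 3 libraries without Rn45s differed from the 4 with it, by limma with knockdown as a covariate, in 51.2% of the 8782 genes tested, of which 4482 were higher without it and 14 lower. Of the 5 members tested 3 differed as well: Sycp3 by 1.17 on the log2(FPKM + 1) scale (adjusted p = 0.0424), Cdc25c by 1.14 (adjusted p = 0.0071) and Cdc25a by 0.52 (adjusted p = 0.0492). Fold changes within each kind are therefore given for the members tested.

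The targeted gene Gata4 was listed at 0 in 3 of the 4 Gata4 knockdown libraries and stood at 0.368 FPKM in knockdown 2, against 3.18, 0.716 and 5.44 FPKM in the 3 control libraries. The groups did not overlap, but Gata4 was below the filter, and the exact two-sided permutation test gave p = 0.0571, the smallest it can give with 4 against 3. With no filter its adjusted p was 1 by limma. Of the 10 members 5 passed the filter of 1 FPKM in 3 libraries. By limma 0 of these 5 were called, and 1, Sycp3, had an unadjusted p under 0.05, where 0.0342% of all 8782 genes tested were called (3 genes, all lower) and 202 had an unadjusted p under 0.05. No member had groups that did not overlap, as 2.38% of all genes tested did. The median log2 fold change was 0.24 over the 5 members and -0.02 over all genes tested, with 4 positive values and 1 negative.

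Sycp3 stood at 66.5, 60.8, 44.0 and 49.2 FPKM in the 4 Gata4 knockdown libraries, against 21.4, 70.9 and 9.08 FPKM in the 3 control libraries. Controls 1 and 3 lay below every knockdown library, while control 2 held the highest value of all. The pooled log2 fold change was 1.13 (SE 0.50, 95% interval 0.11 to 2.15, unadjusted p = 0.0310, adjusted p = 0.99997 by limma). Among the libraries with Rn45s, Sycp3 was at 44.0 and 49.2 FPKM in knockdown 3 and 4, against 21.4 and 9.08 FPKM in control 1 and 3, a log2 fold change of 1.66 with an adjusted p of 0.359 by limma. Among those without it, Sycp3 was at 66.5 and 60.8 FPKM in knockdown 1 and 2, against 70.9 FPKM in control 2, a difference of -0.15 with no test. Without control 2 the log2 fold change was 1.88 (adjusted p = 0.0889 by limma), and without control 3 it was 0.46. Chpt1 stood at 6.14, 7.09, 4.05 and 3.24 FPKM in the knockdown libraries, against 2.54, 8.65 and 1.67 FPKM in the control libraries, the same order of kinds, with control 2 highest and control 3 lowest.

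**Figure D4:**
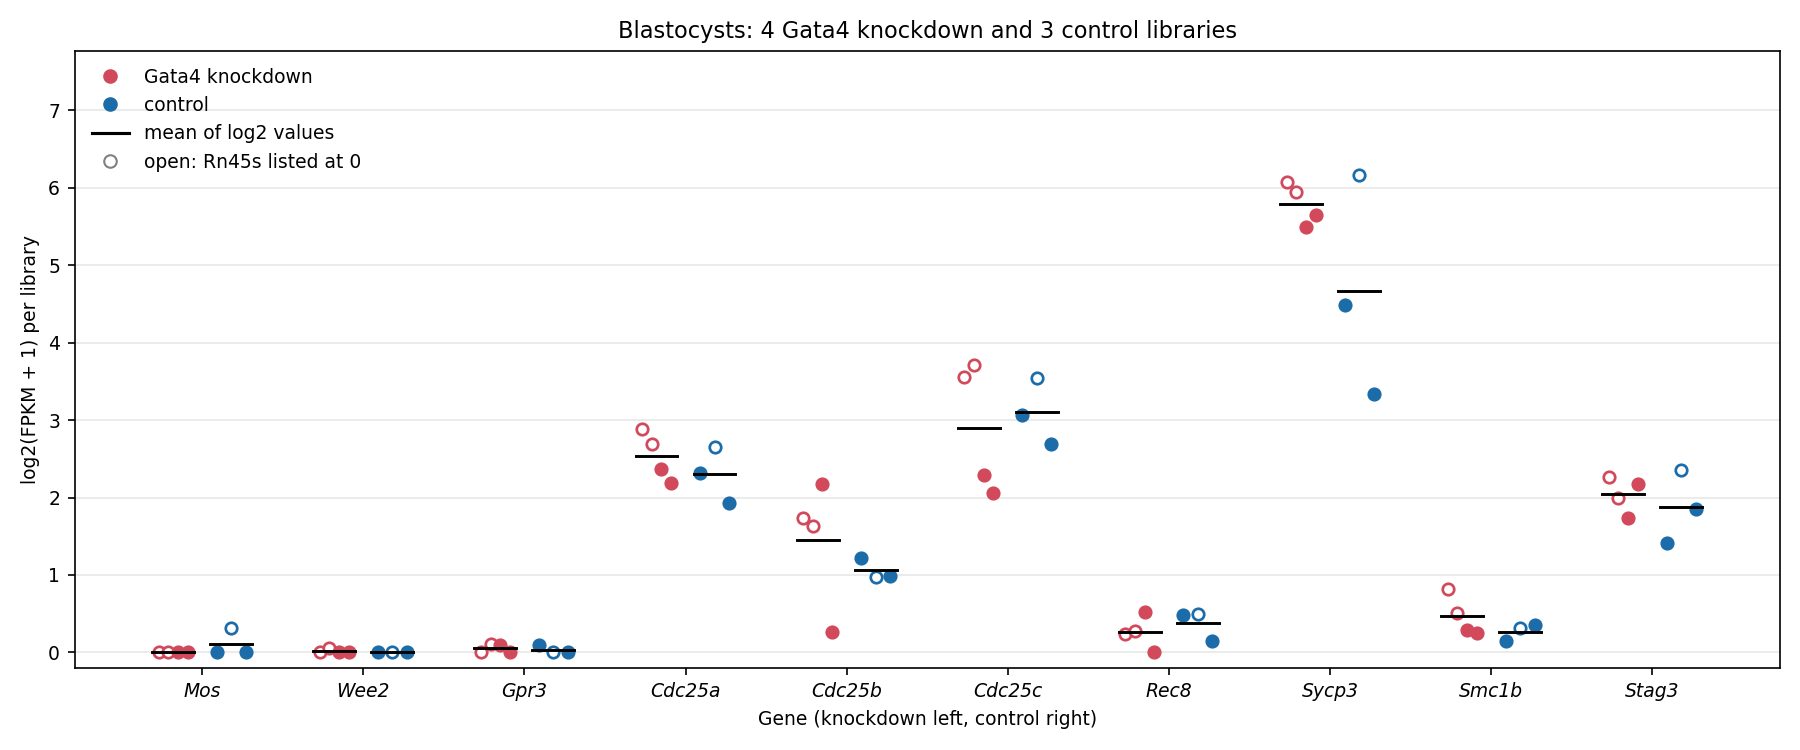
Level on the log2(FPKM + 1) scale (vertical axis) of the 10 genes (horizontal axis) in the 4 Gata4 knockdown libraries (red, left) and the 3 control libraries (blue, right) of blastocysts, with 1 point per library, open where Rn45s was listed at 0, and a bar at the mean of the log2 values. The open points are the higher ones for Cdc25a, Cdc25c and Sycp3, and the open control point of Sycp3 lies above all knockdown points.

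Cdc25c stood at 10.8, 12.1, 3.89 and 3.15 FPKM in the Gata4 knockdown libraries, against 7.38, 10.6 and 5.47 FPKM in the control libraries. The 3 libraries without Rn45s held its 3 highest values, and the groups overlapped (log2 fold change -0.20, SE 0.45). Cdc25b stood at 2.32, 2.11, 3.51 and 0.200 FPKM in the Gata4 knockdown libraries, against 1.34, 0.966 and 0.982 FPKM in the control libraries. In 3 of the 4 knockdown libraries it was above every control, while knockdown 4 was the lowest of all 7 (log2 fold change 0.39, SE 0.39). The fold change of Cdc25b was 0.79 without knockdown 4 and 0.15 without knockdown 3. Cdc25a ranged between 3.57 and 6.42 FPKM in the knockdown and between 2.80 and 5.26 FPKM in the control libraries (log2 fold change 0.24, SE 0.39). Stag3 ranged between 2.33 and 3.80 FPKM in the knockdown and between 1.67 and 4.11 FPKM in the control libraries (log2 fold change 0.17, SE 0.38). These 4 members shared an adjusted p of 0.99997 by limma. Among the libraries with Rn45s their log2 fold changes were -0.71 for Cdc25c, 0.11 for Cdc25b, 0.15 for Cdc25a and 0.33 for Stag3, none of them called, and among those without it they were 0.091, 0.71, 0.15 and -0.22 in that order, with no test.

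The arrest genes were near 0 in every blastocyst library. Mos was listed at 0 in all 4 Gata4 knockdown libraries and reached 0.244 FPKM in control 2. Wee2 reached 0.0442 FPKM in knockdown 2 and was listed at 0 in all 3 controls. Gpr3 reached at most 0.0796 FPKM in the knockdown and 0.0709 FPKM in the control libraries. Rec8 reached at most 0.438 FPKM in the knockdown and 0.410 FPKM in the control libraries, and Smc1b at most 0.769 FPKM in the knockdown and 0.274 FPKM in the control libraries. Exact two-sided permutation tests gave unadjusted p = 0.857 for Mos, 1 for Wee2, 0.914 for Gpr3, 0.571 for Rec8 and 0.343 for Smc1b, where 0.0571 is the smallest possible. In the 4 pathway lists 0 genes were called by limma among 9, 15, 16 and 9 tested, with medians of -0.08, 0.13, 0.03 and 0.18 against -0.02 over all genes tested, and at an unadjusted p under 0.05 there was 1 gene, in the meiotic axis list, where 202 of all 8782 genes tested had such a p.

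The 3 tables were normalized separately, so levels across them are set side by side without a test. The range over the injected 8-cell controls held the stage value of 8-cell embryos for Mos, Gpr3, Cdc25a, Cdc25b, Rec8 and Sycp3. It did not for Cdc25c (7.15 to 14.8 FPKM against 25.9 FPKM in the stage table), Stag3 (1.37 to 3.26 against 4.43 FPKM), Wee2 (0 to 0.164 against 0.861 FPKM) and Smc1b (0 to 0.206 against 0.670 FPKM), all of which were lower in the injected controls. Between blastocyst and 8-cell controls, Cdc25b stood at 0.966 to 1.34 FPKM in blastocysts and at 6.11 to 24.7 FPKM in 8-cell embryos, the same order as in the stage table between ICM and 8-cell embryos. Sycp3 stood at 9.08 to 70.9 FPKM in control blastocysts, against 10.3 FPKM in the ICM. The 70.9 FPKM was that of control 2, in which Rn45s was at 0, while controls 1 and 3, with Rn45s, were at 21.4 and 9.08 FPKM. Whole blastocysts keep the trophectoderm that immunosurgery removes, and the summed level of the 8 trophectoderm markers was 2448 to 5627 FPKM in the blastocyst libraries, against 195 FPKM in the ICM. The part of that tissue in the Sycp3 level was not tested.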

How the data were processed

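RNA was measured with a modified Smart-seq2 protocol, per the labels' protocols, which primes on poly(A) tails. Per the submitters' processing notes, CASAVA 1.8, STAR 2.4.0 and the build mm9 apply to all 32 samples and Cufflinks 2.2.1 to 20 of them. The tool behind the other values, and how the samples of a stage became 1 column, are not given in the sources used here. The authors deposited FPKM values in 3 tables, one for stages and one for each knockdown, and no counts were used here. In the 8-cell knockdown table the steps between low values put the relative depth of libraries between 1 and 2.93, a range that covers both groups. That range is rough, since 23 of 28 pairs of libraries fitted it within 2% and the largest misfit was 101%. The depth of the other libraries is unknown, so no counting interval is given.

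Knockdowns were tested within their own table on log2(FPKM + 1), with a pseudocount of 1, using limma 3.58.1 with a variance trend in R 4.3.3, over genes with at least 1 FPKM in 4 libraries (8-cell) or 3 (blastocyst). Where libraries were left out, the number required dropped to the size of the smaller remaining group. P-values were adjusted over all genes tested by the Benjamini-Hochberg method, with a threshold of 0.05. Fold changes on this scale understate the change of low genes. Members below the filter were tested by exact permutation over libraries with scipy 1.17.1, and these p-values are not adjusted. The limma script was tested on simulated data. Likeness of profile, promoter letters (RefSeq, GRCm38.p6) and overlap of exons (GENCODE M21, with blastn 2.17.0 for near-identical copies) are descriptions. Named genes are the 10 members, the 2 targeted genes, Rn45s, up to 4 genes per pathway list by level in MII oocytes with any list gene called in a knockdown, and the 3 most alike genes per member that reaches 5 FPKM. The mitotic counterparts, the overlapping neighbours and the other list genes named (Rad21, Stag1, Stag2, Smc1a, Wee1, Cdk1, marker genes) were named beside that rule. The members and lists were chosen with earlier results of these data known. No sequence is shown for Mos and Cdc25c. Alternatives covered the pseudocount, the filter, scaling, the variance trend, the replicate block, the library kind and leaving out each library.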

Additional observations from a re-analysis of the deposited data

Results flagged for a closer look

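In groups of 4 libraries, a value is pointed out when its gap to the nearest other library, divided by the range of the group, is above Dixon's 95% critical value for 4 values. Chance points out about 1 in 20 groups, and a gene listed at 0 in all libraries but 1 always passes. Among Nr5a2 knockdown libraries, Mos stood at 1.55 FPKM and Rec8 at 0.330 FPKM in knockdown 2, with 0 in the other 3, and Stag3 stood at 4.20 FPKM in knockdown 4. Mos stood at 0.985 FPKM in 8-cell control 1, with 0 in the other 3 controls. In Gata4 knockdown 2, Wee2 stood at 0.0442 FPKM and the targeted gene Gata4 at 0.368 FPKM, each with 0 in the other 3 knockdown libraries. None of these members was called in either knockdown.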

How the results depend on the processing

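The count of members called was 0 in both knockdowns under every alternative fit, and no result changed sign past a threshold. With a pseudocount of 0.1 the Nr5a2 knockdown called 73 genes higher and 35 lower, and with no filter 7 and 4. Median scaling called 67 higher and 81 lower, and quantile normalization 68 higher and 71 lower. With the replicate number as a block it called 37 higher and 18 lower in the Nr5a2 knockdown, and 4 higher and 14 lower in the Gata4 knockdown. Libraries of the same number did not deviate together in every pair (correlations from -0.108 to 0.277). Pairs of unlike number had correlations from -0.364 to 0.505. With so few libraries this cannot settle whether the numbers pair them, and the labels do not say. Leaving out 1 library of the Nr5a2 comparison gave 13 to 177 genes higher and 8 to 108 lower. It gave 60 and 26 without knockdown 1, 29 and 10 without knockdown 2, 177 and 108 without knockdown 3, 66 and 26 without knockdown 4, 13 and 8 without control 1, 33 and 14 without control 2, 47 and 26 without control 3, and 65 and 37 without control 4. In the Gata4 comparison leaving out 1 library gave 0 to 5 higher and 1 to 25 lower, with 2 higher and 9 lower without knockdown 1, 2 and 25 without knockdown 2, 2 and 11 without knockdown 4, 5 and 19 without control 2, 1 lower without control 1 and 10 lower without control 3. The 3 genes lower became 1 with a pseudocount of 0.1, and 0 with no filter, at 5 FPKM, under median scaling or quantile normalization, with library kind as covariate or in the libraries with Rn45s. The cause of these shifts was not tested.

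Small fold changes turned sign when 1 library was left out, none of them called: over these fits Cdc25a ran from -0.39 to 0.22 and Stag3 from -0.25 to 0.11 in the Nr5a2 comparison, and Cdc25c from -0.47 to 0.084 and Stag3 from -0.058 to 0.41 in the Gata4 comparison. The block, in which Gata4 knockdown 4 has no control of its number, also put Cdc25c at 0.084. Without libraries in turn, the other fold changes ran from 0.097 to 0.85 for Sycp3, 0.054 to 0.52 for Gpr3, -1.41 to -0.51 for Cdc25b and 0.27 to 0.64 for Cdc25c in the Nr5a2 comparison, and from 0.46 to 1.88 for Sycp3, 0.053 to 0.41 for Cdc25a and 0.15 to 0.79 for Cdc25b in the Gata4 comparison. The call of Nr5a2 itself was lost without control 1 and with no filter. Gata4 itself passed the lower filter of some of these fits through its control libraries alone, so no test of it is given from them.

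The count of members past the fold depended on the thresholds. With a pseudocount of 5 it was 1, 3 and 2 at the early 2-cell, 2-cell and 4-cell steps, and with a difference of 2 on the log2 scale it was 0, 2 and 1 there and 0 at the 8-cell step. With 1 FPKM as the minimum it was 2 at the 8-cell step and 2 between mESC and ICM, where it was 1 with a pseudocount of 0.1 and 1 under median scaling. Median scaling moved the mESC column by 0.57 and the ICM column by -0.24 on the log2 scale, and put Cdc25a at 0.79 and Sycp3 at 0.83 at the 2-cell step. It also put Mos past the fold there, at -1.05, so the count was 4, left Cdc25b at 0.986 at the 4-cell step, where the count was 3, and put Sycp3 past the fold between mESC and ICM, at 1.06.

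The stage values have no replicates, and 4 or 3 libraries a group limit what a knockdown test can show.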

Other observations

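Cdk1, the kinase on which WEE2 and the CDC25 phosphatases act, stood at 0.593 FPKM in MII oocytes, 24.0 in zygotes, 12.3 in early 2-cell and 140 in 2-cell embryos, while its partner Ccnb1 stood at 385 FPKM in MII oocytes. Cdk1 was singled out after its values were seen. Hormad1, which marks unsynapsed meiotic axes, was also singled out afterwards: it stood at 0.130 FPKM in MII oocytes, 29.6 in 2-cell, 19.8 in 4-cell and 11.6 in 8-cell embryos. Sycp1, the transverse filament of the synaptonemal complex and likewise singled out afterwards, stood at 2.48 FPKM in MII oocytes, 16.5 in 2-cell and 4.86 in 8-cell embryos.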
